A study of Homo sapiens with 19 samples.

Results

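The genes described here encode the actin cytoskeleton, the focal adhesions that tie it to the cell's surroundings, and the transcription factor SRF with its cofactors. They are 44 named genes of the 62700 in the count files, and each was matched to 1 Ensembl identifier. By role they are 2 actins, 6 chains of non-muscle myosin, 4 tropomyosins and 7 crosslinkers and calponin-family proteins. A further 7 bind actin monomers or sever or cap filaments, 6 belong to the Arp2/3 complex, 4 promote filament growth or contraction, 5 are focal adhesion proteins, and 3 are SRF and its cofactors MRTFA and MRTFB. The filter on low counts kept 43 of the 44. MYL9, the regulatory myosin light chain typical of smooth muscle, had at most 0.415 CPM in any library and was not tested.

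RNA came from A549, an established human lung adenocarcinoma cell line, around nanostraw electroporation (NEE), in which electric pulses applied through hollow nanotubes open cells and let their contents out. Cells grown as monolayers or as spheroids were lysed before NEE, right away after it, 2 h after it or 24 h after it, with 2 biological replicates for each of these 8 groups. NEE-sampled RNA from A549 monolayers gave 3 technical replicates. Total RNA of the lysates was extracted with one column kit and NEE-sampled RNA was purified with another made for small amounts, and all libraries followed Smart-Seq2. None of the groups is a culture kept for the same hours without NEE.

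Actin filaments grow from monomers that profilin (PFN1) delivers and thymosins (TMSB4X, TMSB10) hold in reserve. The Arp2/3 complex starts branches and formins such as DIAPH1 lengthen straight filaments, while cofilin and destrin cut old ones. Non-muscle myosin pulls on bundles held by tropomyosin, alpha-actinin and filamin, under the control of the kinases ROCK1 and ROCK2, and the pull reaches the substrate through talin, vinculin and zyxin. Free actin monomers keep MRTFA and MRTFB out of the nucleus, and when monomers are used up these cofactors join SRF on DNA, where SRF binds the CArG box. Many actin and adhesion genes are SRF targets.

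Promoters are shown here because the regulator and its targets are both among these genes. RefSeq promoter sequences of 250 bases before to 50 after a start (GRCh38.p14) were at hand for 39 of the 44 genes, and ACTB, TAGLN, MYL9, ARPC1B and PTK2 were not matched. The CArG box, searched on both strands and overlapping no other motif searched, was present in 7 of the 39, namely SRF, ACTG1, FLNA, ROCK2, CNN2, TPM4 and ACTN1. It was present in 1.6% of the 27305 genes with a promoter sequence, and in 1.29% of all 35116 sequences. A match describes these letters and is no evidence of binding. The 180 bases before the start are printed for 5 of the 7, 5′ to 3′ on the gene's strand, with the CArG box in capitals. The SRF stretch (chromosome 6, 43171089 to 43171268, plus strand) holds 2 boxes. The ACTG1 stretch (chromosome 17, 81512800 to 81512979, minus strand) and the FLNA stretch (chromosome X, 154374635 to 154374814, minus strand) each hold 1 box that begins 94 bases before the start. ROCK2 (chromosome 2, 11345438 to 11345617, minus strand, a start inside the longer gene model) and CNN2 (chromosome 19, 1026428 to 1026607, plus strand) are the 2 genes with a box that were lower in spheroids.
SRF: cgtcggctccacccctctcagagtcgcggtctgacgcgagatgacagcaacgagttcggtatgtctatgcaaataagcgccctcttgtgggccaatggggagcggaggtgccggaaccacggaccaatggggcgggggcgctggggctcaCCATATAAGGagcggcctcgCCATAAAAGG
ACTG1: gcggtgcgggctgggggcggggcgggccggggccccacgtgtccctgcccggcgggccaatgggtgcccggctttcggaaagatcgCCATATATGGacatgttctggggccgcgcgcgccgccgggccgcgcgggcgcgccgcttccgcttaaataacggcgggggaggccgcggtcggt
FLNA: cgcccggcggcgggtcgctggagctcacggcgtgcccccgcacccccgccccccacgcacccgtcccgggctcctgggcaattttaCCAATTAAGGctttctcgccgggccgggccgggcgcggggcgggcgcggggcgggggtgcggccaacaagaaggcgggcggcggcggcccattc
ROCK2: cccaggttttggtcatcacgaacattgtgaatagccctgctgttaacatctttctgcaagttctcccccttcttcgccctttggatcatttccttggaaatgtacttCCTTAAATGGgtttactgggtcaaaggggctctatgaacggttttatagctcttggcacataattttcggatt
CNN2: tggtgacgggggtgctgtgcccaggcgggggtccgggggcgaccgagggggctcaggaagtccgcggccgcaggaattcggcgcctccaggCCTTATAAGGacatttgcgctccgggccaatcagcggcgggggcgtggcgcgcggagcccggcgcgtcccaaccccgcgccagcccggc

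Lysate libraries held 16031034 to 24571083 counts and NEE-sampled libraries 13626934 to 18512985. Levels below are CPM scaled by TMM over the 19 libraries, that is, each gene's share of its library's counts after libraries are set to a common scale. The 12 epithelial and A549 markers summed to 18055 to 64107 CPM, and 10 of them were at 50 CPM or more in every library. The other two were lower: EPCAM was at 1.62 to 11.1 CPM over all libraries, and CDH1 was at 15.2 to 229 CPM in lysates and 6.94 to 14.6 CPM in NEE-sampled RNA. Replicate 1 of the monolayers before NEE stood apart. Its 14 natural killer and T cell markers summed to 888 CPM against 25.2 to 69.4 CPM in the other lysates and 1.69 to 5.75 CPM in NEE-sampled RNA, and KRT18 was at 852 CPM where the other lysates had 3113 to 7696 CPM. Of the 43 tested members, 17 had their highest lysate level in that library and 6 their lowest, against 16.3% and 18% of all genes tested. Among genes with a lysate mean of at least 50 CPM, 23.3% were highest and 25.2% lowest in that library. Calls that changed without it are therefore also given without it. So are the named differences from monolayers before NEE, between times and between cultures, that it moved most. For NEE-sampled RNA against monolayers before NEE, log2 fold changes are given as ranges over alternatives instead. The 17 include VCL, FLNA, TPM1, TPM4, ACTR2, ACTR3, PTK2 and TMSB10. In the other lysates 5 of 9 smooth muscle markers (ACTG2, CNN1, LMOD1, DES and MYOCD) were at no more than 1 CPM, while MYH11 reached 1.81 CPM, ACTA2 15.3 CPM, SYNPO2 15.9 CPM and SMTN 24.7 CPM. Of 9 fibroblast markers 5 (COL1A2, COL3A1, PDGFRA, PDGFRB and POSTN) were at no more than 1 CPM, while DCN reached 1.04 CPM, LUM 4.51 CPM, COL1A1 7.79 CPM and THY1 14.5 CPM.

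The actins led. The 44 genes took 3.21% to 3.86% of all counts in monolayers, 2.51% to 3.55% in spheroids and 3.55% to 3.95% in NEE-sampled RNA, and ACTB with ACTG1 took 1.76% to 2.26%, 1.44% to 2.15% and 1.89% to 2.30%. Per kilobase of principal transcript, the mean monolayer level was 5717 CPM per kb for ACTB, the beta-actin gene, and 3766 CPM per kb for ACTG1, the gamma-actin gene. TPM3 followed at 649.8 CPM per kb, then TMSB4X at 597, TAGLN2 at 567 and PFN1 at 504 CPM per kb. Low on this scale were ROCK1 at 3.89, ROCK2 at 3.9, VASP at 2.44, TAGLN at 1.22 and SRF at 1.12 CPM per kb.

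**Figure D1:**
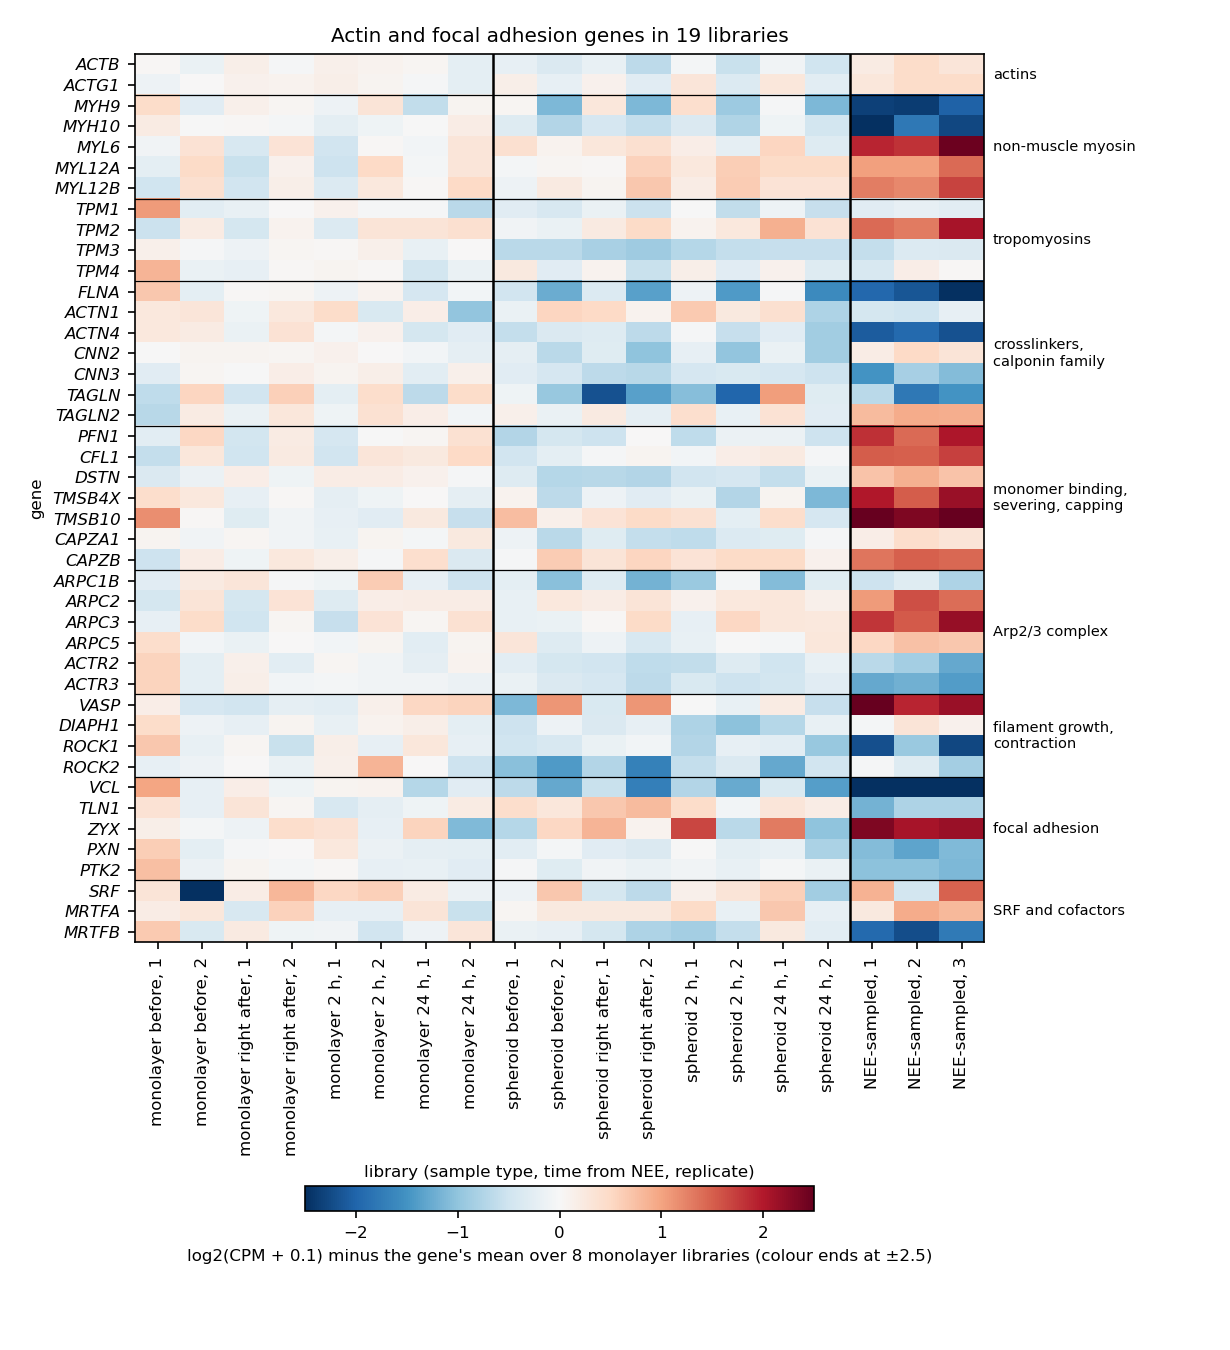
Levels of the 43 tested genes (rows, by role) in 19 libraries (columns), as log2(CPM + 0.1) minus the gene's mean over the 8 monolayer libraries. The NEE-sampled columns hold the deepest colours of both signs, the TPM3 row is below its monolayer mean in all 8 spheroid libraries, and replicate 1 of the monolayers before NEE departs from the other monolayers for VCL, TPM1, TPM4 and TMSB10.

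Spheroids were compared with monolayers over the 4 times, which asks how these genes differ between cells in a ball and cells on a flat surface. Lower levels in spheroids were called for 12 of 43 members, against 9.84% of all 17822 genes tested (edgeR, adjusted p under 0.05). Of the 43, 0 were called higher, against 10% of all genes. The 12 came from 7 of the 9 roles and were, in order of p, TPM3, DSTN, ROCK2, CNN3, VCL, MYH10, ACTN4, ACTR3, ACTR2, CNN2, DIAPH1 and CAPZA1. The median log2 fold change was −0.31 over the 43 members and −0.02 over all genes. In lysates, less RNA of a gene per cell and fewer cells that make it cannot be told apart. The 8 libraries of a culture are 2 replicate numbers at 4 times. This fit has no term for the replicate number and treats the 8 as independent, here and wherever n = 8 is given.

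Of the actins, ACTB ranged from 9276 to 12054 CPM with a median of 11222 CPM in monolayers and from 6969 to 10532 CPM with a median of 9034 CPM in spheroids. The groups overlapped, and the log2 fold change of −0.31 ± 0.11 (SE) was not called (edgeR adjusted p = 0.0715). With the replicate number as a block it passed, at −0.32 (edgeR adjusted p = 0.0143). ACTG1 gave −0.01 ± 0.12 (SE, edgeR adjusted p = 1).

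TPM3 encodes a tropomyosin of non-muscle filaments and lies on chromosome 1 at 154155304 to 154194648 (GRCh38). It ranged from 868 to 1081 CPM with a median of 997 CPM in monolayers and from 530.0 to 666 CPM with a median of 615 CPM in spheroids. Every spheroid library lay below every monolayer library, which held for 3.36% of all genes tested, while 2.97% lay wholly above. TPM3 was the only one of the 43 tested members without overlap. Its log2 fold change was −0.69 ± 0.09 (SE, edgeR adjusted p = 0.000152). TPM1 at −0.37, TPM4 at −0.10 and TPM2 at 0.24 did not pass. TPM3 made up 50.4% ± 4.74 of the counts of the 4 tropomyosin genes in monolayers and 40.8% ± 3.87 in spheroids (mean ± SD, n = 8 each).

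Among genes that bind monomers or sever or cap filaments, DSTN and CAPZA1 were lower. DSTN, which encodes the severing protein destrin, ranged from 825 to 1207 CPM with a median of 1084 CPM in monolayers and from 635 to 936 CPM with a median of 729 CPM in spheroids. Of the monolayer libraries only the one that stood apart lay within the spheroid range, and the log2 fold change was −0.51 ± 0.10 (SE, edgeR adjusted p = 0.00374). CAPZA1, the alpha subunit of the capping protein CapZ, gave −0.36 ± 0.12 (SE, edgeR adjusted p = 0.0406). Its partner CAPZB gave 0.35 ± 0.16 and did not pass (edgeR adjusted p = 0.139). PFN1, the profilin gene, gave −0.40 and did not pass (edgeR adjusted p = 0.094), but passed as lower with the replicate block (edgeR adjusted p = 0.0338) and without the monolayer library that stood apart, at −0.48 (edgeR adjusted p = 0.0368). TMSB4X at −0.32, CFL1 at −0.08 and TMSB10 at 0.23 were not called.

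ROCK2 and DIAPH1, which promote contraction and filament growth, were lower. ROCK2, a kinase that activates myosin, ranged from 21.8 to 56.2 CPM with a median of 30 CPM in monolayers and from 9.6 to 24.2 CPM with a median of 17 CPM in spheroids. The log2 fold change was −0.93 ± 0.20 (SE, edgeR adjusted p = 0.00495), and 1 monolayer library lay within the spheroid range. DIAPH1, a formin, gave −0.49 ± 0.15 (SE, edgeR adjusted p = 0.0329). ROCK1 at −0.42 and VASP, which speeds the growth of filament ends, at 0.17 were not called.

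Crosslinkers and calponins gave 3 lower genes of 7. CNN3, calponin 3, ranged from 135 to 186 CPM with a median of 173 CPM in monolayers and from 103 to 137 CPM with a median of 124 CPM in spheroids (log2 fold change −0.47 ± 0.10 SE, edgeR adjusted p = 0.0057). ACTN4, alpha-actinin 4, ranged from 1322 to 2294 CPM with a median of 1819.8 CPM in monolayers and from 986 to 1757 CPM with a median of 1299 CPM in spheroids. Its log2 fold change was −0.44 ± 0.13 (SE, edgeR adjusted p = 0.025), with 4 monolayer libraries in the spheroid range against 1 for CNN3. CNN2, calponin 2, gave −0.51 ± 0.15 (SE, edgeR adjusted p = 0.0309). FLNA, the filamin that crosslinks filaments at wide angles, gave −0.73 ± 0.26 and did not pass (edgeR adjusted p = 0.0717), but passed with the replicate block at −0.84 (edgeR adjusted p = 0.0119). ACTN1 at 0.19 and TAGLN2 at 0.03 were not called, nor was TAGLN, which had at most 5.18 CPM in any library.

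In focal adhesions, VCL was lower. VCL encodes vinculin, which links talin to actin, and lies on chromosome 10 at 73995193 to 74121363 (GRCh38). It ranged from 321 to 1033 CPM with a median of 519.7 CPM in monolayers and from 161 to 401 CPM with a median of 266 CPM in spheroids. The log2 fold change was −0.96 ± 0.22 (SE, edgeR adjusted p = 0.00788), and without the monolayer library that stood apart it was −0.78 (edgeR adjusted p = 0.0228). TLN1, the talin gene, gave 0.39 ± 0.13 and missed the threshold (edgeR adjusted p = 0.0514). It passed as higher with the replicate block (edgeR adjusted p = 0.041) and without that library, at 0.47 (edgeR adjusted p = 0.0205). ZYX (zyxin) at 0.44, PXN (paxillin) at −0.28 and PTK2 (focal adhesion kinase) at −0.15 were not called.

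Non-muscle myosin and the Arp2/3 complex each held called and uncalled members. MYH10, the heavy chain of myosin IIB, ranged from 86.8 to 119 CPM with a median of 102 CPM in monolayers and from 60.7 to 96.2 CPM with a median of 76.2 CPM in spheroids (log2 fold change −0.46 ± 0.12 SE, edgeR adjusted p = 0.0157). MYH9, the heavy chain of myosin IIA, gave −0.33 ± 0.28, and the light chains MYL6, MYL12A and MYL12B gave 0.17, 0.28 and 0.27, none of them called. ACTR3, an actin-related subunit that seeds the branch, ranged from 352 to 614 CPM with a median of 397 CPM in monolayers and from 267 to 375 CPM with a median of 316 CPM in spheroids. ACTR3 gave −0.41 ± 0.12 (SE, edgeR adjusted p = 0.0265) and its partner ACTR2 −0.44 ± 0.13 (SE, edgeR adjusted p = 0.0292). ARPC1B at −0.61, ARPC5 at −0.06, ARPC2 at 0.15 and ARPC3 at 0.11 were not called. SRF at −0.15, MRTFA at 0.19 and MRTFB at −0.40 were not called either.

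**Figure D2:**
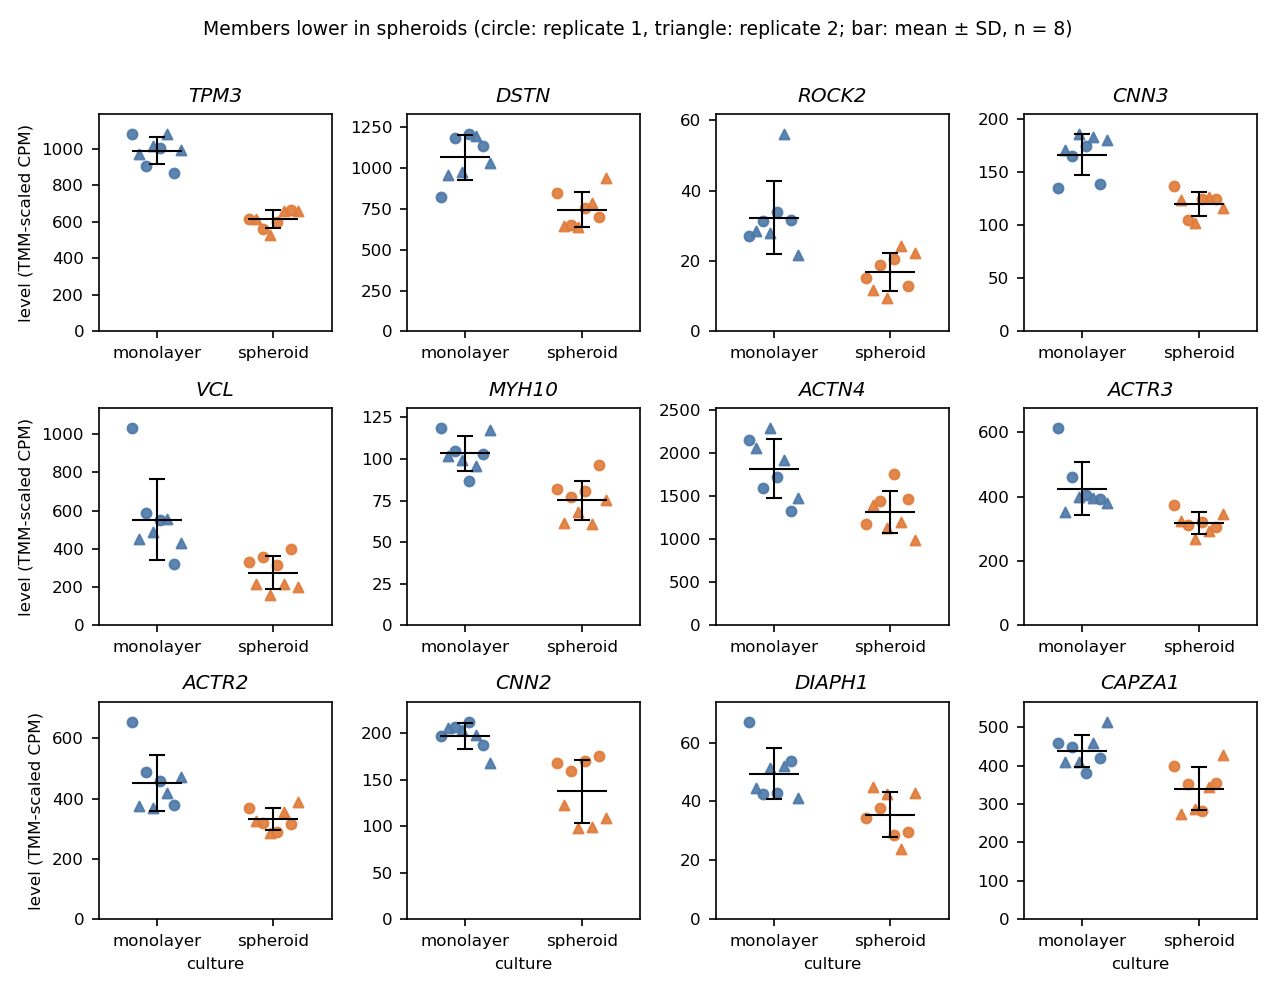
Level in TMM-scaled CPM (vertical axes, from 0) of the 12 members lower in spheroids, in 8 monolayer and 8 spheroid libraries, with mean ± SD. TPM3 has separate clouds of points, while the other panels overlap, and in the VCL panel 1 monolayer point of replicate 1 stands at 1033 CPM, above the rest.

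The count of 12 called members moved with single libraries, and with 1 library left out 5.88% to 10.1% of all genes were lower. It was 5 without replicate 2 of the spheroids right after NEE. It was 7 without replicate 1 of the monolayers right after NEE, either replicate of the monolayers at 2 h, replicate 2 of the spheroids before NEE or replicate 2 of the spheroids at 2 h, where 1 of the 7 was higher. TPM3, DSTN and ROCK2 passed in all 26 alternatives run for them, and CNN3 and VCL in all but 1, while CAPZA1 lost its call in 15 and DIAPH1 in 14 of 26. Without the monolayer library that stood apart 10 were lower and 1 higher, against 7.41% and 7.77% of all genes, with CAPZA1, DIAPH1 and ACTR2 no longer called. DESeq2 called 13 lower and 1 higher, against 12.2% and 13.3% of all genes, and the fit with the replicate block 15 lower and 1 higher, against 11% and 11.3%.

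The replicate number divided the spheroids. At all 4 spheroid times 12 of the 43 members were higher in replicate 1 than in replicate 2 and 0 were lower, against 10.5% and 9.03% of all genes tested. MYH9 stood at 382, 454, 495 and 364 CPM in replicate 1 before NEE, right after, at 2 h and at 24 h, and at 169, 171, 197 and 171 CPM in replicate 2. FLNA stood at 561, 619, 716 and 769 CPM in replicate 1 and at 332, 305, 294 and 262 CPM in replicate 2. For VCL the values were 332, 355, 314 and 401 CPM against 217, 161, 218 and 201 CPM. The mean ratio over the 4 times was 2.38-fold for MYH9, 2.23-fold for FLNA, 1.77-fold for VCL, 1.58-fold for TMSB4X and 1.58-fold for CNN2. ACTB, ACTG1, MYH10, TPM1, TPM4, TAGLN2 and PTK2 were the other 7, from 1.1-fold for PTK2 to 1.42-fold for TPM4. TPM3 stood at 615, 563, 600.3 and 666 CPM in replicate 1 and at 615, 530.0, 657 and 661 CPM in replicate 2, with no such split.

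Monolayers had another pattern. There 4 members were higher in replicate 1 at all 4 times (ACTB, ACTR3, ROCK1 and PTK2) and 9 in replicate 2, against 9.58% and 11.1% of all genes. The share of members higher in replicate 1 was thus near that of all genes. The 9 were MYL6, MYL12A, MYL12B, TPM2, CNN3, TAGLN, PFN1, CFL1 and ARPC3, with mean ratios from 1.18-fold for CNN3 to 2.01-fold for TAGLN.

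Cultures were therefore also compared within each replicate number, with culture and time as terms, an alternative chosen after seeing the data. In each such fit a culture has 1 library per time, and the times stand in for repeats. The p-values measure scatter between times within 1 replicate number, not between biological replicates. In replicate 1, edgeR called 7 members lower and 5 higher, against 10% and 11.1% of all genes, so the share of members called higher was near that of all genes. In replicate 2 it called 19 lower and 1 higher, against 11.6% and 12%. TPM3, DSTN, ROCK2 and ACTR2 were lower in both. TPM3 gave −0.67 in replicate 1 (edgeR adjusted p = 0.00878) and −0.72 in replicate 2 (edgeR adjusted p = 0.000349). MYH9 gave 0.21 (edgeR adjusted p = 0.449) and −1.11 (edgeR adjusted p = 8.53e-05). FLNA gave −0.30 (edgeR adjusted p = 0.411) and −1.36 (edgeR adjusted p = 3.95e-05), and VCL −0.73 (edgeR adjusted p = 0.0997) and −1.27 (edgeR adjusted p = 6.81e-05). TAGLN2 was higher in replicate 1 at 0.47 (edgeR adjusted p = 0.0439) and lower in replicate 2 at −0.41 (edgeR adjusted p = 0.00665). The difference between replicate numbers was not tested.

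**Figure D3:**
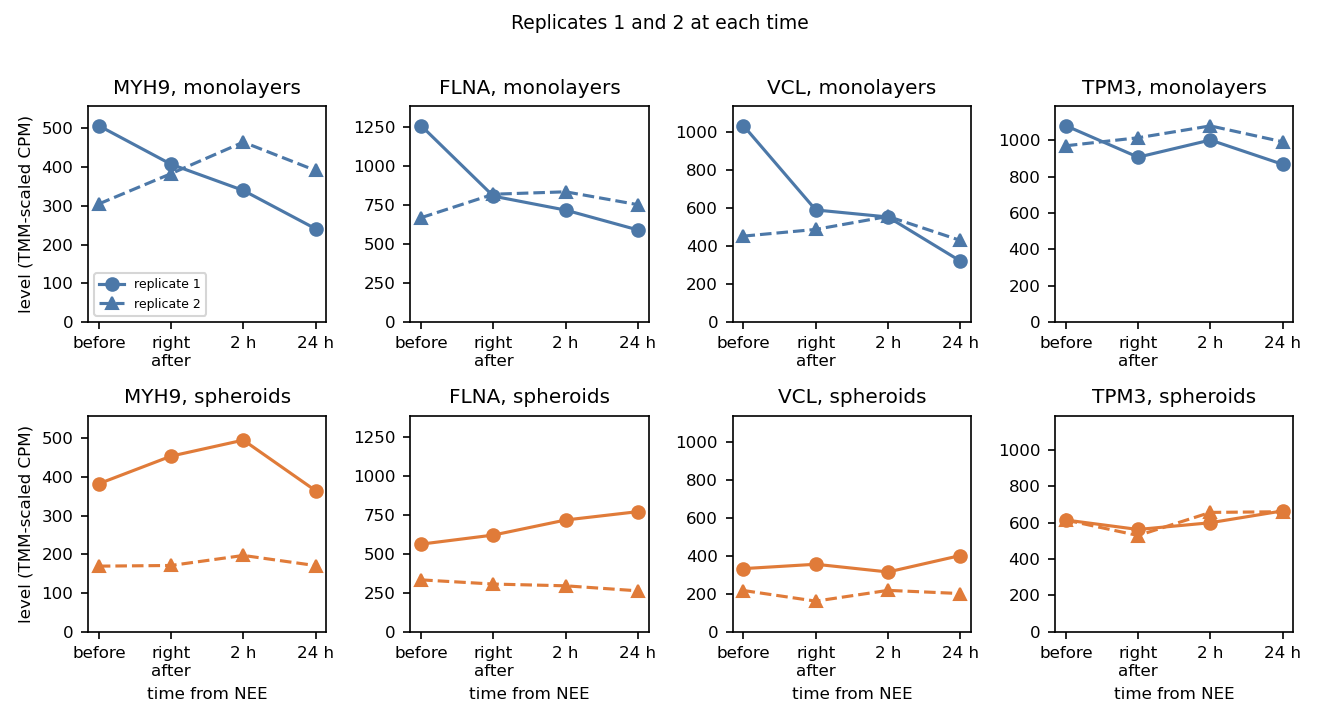
Level in TMM-scaled CPM (vertical axes, from 0) of MYH9, FLNA, VCL and TPM3 at 4 times from NEE in monolayers (top) and spheroids (bottom), replicate 1 as circles and replicate 2 as triangles. In spheroids the MYH9 points of replicate 1 lie above those of replicate 2 at every time, while the TPM3 points lie close together.

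Other values were set beside the difference between cultures too. Fibroblast markers (9 genes) summed to 10.3 to 41.8 CPM in monolayers, or to at most 22.8 CPM without the library that stood apart, and to 5.82 to 11 CPM in spheroids. Most of the gap was THY1, at 4.27 to 14.5 CPM in monolayers and 0.338 to 3.79 CPM in spheroids, while the other 8 summed to 5.25 to 8.83 CPM in the other monolayers and 3.54 to 10.4 CPM in spheroids. Smooth muscle markers (9 genes) summed to 28.8 to 56.8 CPM in monolayers, or to at most 42.2 CPM without that library, and to 22.4 to 40.8 CPM in spheroids. The smooth muscle ranges overlapped. Myeloid markers (8 genes) summed to 10.7 to 26.9 CPM in monolayers and 31.7 to 99.8 CPM in spheroids, and most of this was CD14, at 0.744 to 22.4 CPM and 28.8 to 88 CPM. The other 7 myeloid markers summed to 1.32 to 8.03 CPM in the other monolayers and 2.93 to 16.2 CPM in spheroids. Transcript length correlated with the log2 fold change across the 43 members with Pearson's r = −0.42, against −0.10 across 13791 coding genes, where genes share libraries and are not independent. Their part in the result was not tested. Members with a CArG box in the promoter had a median log2 fold change of −0.15, with 2 of 7 lower, and those without one −0.30, with 10 of 32 lower.

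Before NEE alone, with 2 libraries a culture, edgeR called 0 of 43 members, against 0.701% of all genes higher and 0.595% lower. An unadjusted p under 0.05 was reached by 7 of the 43, or 16.3%, and by 16.4% of all genes. TPM3 stood at 1081 and 971 CPM in monolayers and at 615 and 615 CPM in spheroids (log2 fold change −0.73 ± 0.17 SE, edgeR adjusted p = 0.0556, and −0.64 without the library that stood apart). CAPZB, the positive member with the smallest p, stood at 87.5 and 144 CPM in monolayers and at 124 and 195 CPM in spheroids (log2 fold change 0.47, edgeR adjusted p = 0.477, and 0.17 without that library), so its groups overlapped. With the replicate block 2 members passed, TPM3 at −0.73 (edgeR adjusted p = 0.0315) and VCL at −1.37 (edgeR adjusted p = 0.0448, and −0.70 without that library and with no block), against 1.47% of all genes lower. DESeq2 called the same 2 (DESeq2 adjusted p = 0.0006 and 0.0364), a share of members near the 3.83% of all genes that it called lower. Without replicate 2 of the monolayers, which leaves the library that stood apart alone in its group, 6 were called lower, against 3.03% of all genes, and without replicate 1 the count was 0.

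Other genes of the same pathways were counted list by list, against 10% of all genes higher and 9.84% lower in spheroids. Of 12 other Arp2/3 subunits and activators 0 passed. Among 17 other crosslinkers 2 were higher, near the share of all genes, and 4 lower. The median log2 fold change of this list was −0.31, but the 2 higher genes had the smallest p and are the ones named. LIMA1, which bundles filaments, had 23.2 ± 5.39 CPM in monolayers and 53.4 ± 11.6 CPM in spheroids (mean ± SD, n = 8 each, log2 fold change 1.21, edgeR adjusted p = 0.00104), and PDLIM5 had 367 ± 82.6 and 613 ± 102 CPM (0.75, edgeR adjusted p = 0.00503). Of 15 other turnover factors 2 were higher and 2 lower, each near the share of all genes. CORO1B, a coronin, rose from 62 ± 18.4 to 137 ± 35.4 CPM (1.16, edgeR adjusted p = 0.00153), and its relative CORO1C went from 497 ± 125 to 316 ± 32.2 CPM (−0.64, edgeR adjusted p = 0.00299).

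Among 21 other focal adhesion genes 1 was higher and 3 were lower, against 10% and 9.84% of all genes. The kinase gene SRC rose from 161 ± 50 to 368 ± 88.7 CPM (1.2 as log2 fold change, means ± SD over 8 libraries each, edgeR adjusted p = 0.00122), and FERMT2, a kindlin, went from 39.5 ± 13.6 to 27.1 ± 5.01 CPM (−0.50, edgeR adjusted p = 0.0271). Of 11 tested early SRF targets, FOSB (edgeR adjusted p = 0.00164) and NR4A1 (−1.09, edgeR adjusted p = 0.0174) were lower in spheroids over all times. FOSB was at 0 in both spheroid libraries before NEE and in 1 of the 2 right after, so no fold is given. At 2 h it stood at 38 and 39.6 CPM in monolayers and at 48.2 and 5.79 CPM in spheroids, and at 24 h at 0.579 and 0.61 CPM and 0.787 and 0.282 CPM, so the cultures overlapped at both times.

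Time after NEE was compared within each culture, to ask whether the cytoskeleton genes respond to the procedure. No member passed in any of the 10 comparisons between times or the 3 interactions of culture and time, either in edgeR or in DESeq2. The share of all genes called by edgeR was 0 right after and at 24 h against before NEE in both cultures, 0.00561% at 2 h in monolayers and 0.0112% at 2 h in spheroids. For successive times it was 0.00561% from right after to 2 h and from 2 h to 24 h in monolayers, 0.0112% and 0.00561% in spheroids, and 0 for each interaction. An unadjusted p under 0.05 was reached by 1, 1 and 5 members right after, at 2 h and at 24 h in monolayers and by 0, 0 and 1 in spheroids. From right after to 2 h the counts were 0 and 0, from 2 h to 24 h 0 and 2, and in the interactions 0 each. Among all genes the share was 1.8% to 4.42% between times and 2.9% to 3.52% in the interactions. The 5 members at 24 h in monolayers were 11.6% of those tested, against 4.42% of all genes. That comparison includes the library that stood apart. The median SE of a member's log2 fold change was 0.32 between times and 0.46 in the interactions. For the genes named next, the member of each sign with the smallest p in a comparison, the edgeR adjusted p was 1 (over 0.999 in the interactions).

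In monolayers TMSB10, a thymosin, stood at 291 and 132 CPM before NEE, 105 and 122 CPM right after, 112 and 106 CPM at 2 h, and 154 and 87.2 CPM at 24 h. The first value, the highest, is from the library that stood apart, as is the first of TPM1, which stood at 615 and 244 CPM before NEE and at 287 and 184 CPM at 24 h. Right after NEE SRF stood at 4.56 and 7.26 CPM against 5.06 and 0.637 CPM before. The values of TPM1 at 24 h and of SRF right after overlapped with those before NEE. Without the library that stood apart, the log2 fold change of TMSB10 went from −0.89 to −0.21 right after NEE and from −0.96 to −0.28 at 2 h. That of TPM1 at 24 h went from −0.85 to −0.02, and that of SRF right after from 1.05 to 3.21. DSTN stood at 1207 and 1196 CPM at 2 h against 825 and 958 CPM before. Both later libraries were above both earlier ones, as was so for 12.7% of all genes. TPM2 stood at 152 and 160.2 CPM at 24 h against 84.3 and 139.9 CPM before, with a log2 fold change of 0.50 that was 0.19 without the library that stood apart. ROCK2 went from 31.5 and 28 CPM right after to 34 and 56.2 CPM at 2 h and 31.6 and 21.8 CPM at 24 h. TLN1 went the other way, from 74.8 and 62.3 CPM to 45.4 and 51.6 CPM and 55.9 and 69.7 CPM.

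In spheroids TPM2, a tropomyosin, stood at 114 and 108 CPM before NEE, 142 and 169 CPM right after, 129.7 and 147 CPM at 2 h, and 226 and 157 CPM at 24 h. Its log2 fold change from before NEE to 24 h was 0.78 ± 0.30 (SE). CNN3 stood at 137 and 124 CPM before and 105 and 103 CPM right after. ROCK2 stood at 20.7 and 24.2 CPM at 2 h, after 15.2 and 11.7 CPM before NEE and 18.8 and 9.6 CPM right after. DIAPH1 stood at 28.5 and 23.8 CPM at 2 h, after 34.2 and 44.8 CPM before and 37.9 and 42.5 CPM right after. PXN stood at 57.1 and 65.7 CPM before and 60 and 39.5 CPM at 24 h. From 2 h to 24 h TAGLN went from 1.12 and 0.548 CPM to 5.18 and 1.97 CPM, at low levels throughout, and ACTN1 from 606 and 454 CPM to 507 and 223 CPM.

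The interactions ask whether spheroids moved differently from monolayers. Right after NEE the members of each sign with the smallest p were ROCK1 (log2 difference 0.86 ± 0.51 SE) and CNN3 (−0.54 ± 0.29 SE). At 2 h they were PTK2 (0.48 ± 0.36 SE) and DSTN (−0.38 ± 0.29 SE), and at 24 h VCL (1.09 ± 0.62 SE) and VASP (−1.19 ± 0.94 SE). VCL stood at 1033 and 452 CPM in monolayers before NEE, the first in the library that stood apart, and at 321 and 429 CPM at 24 h. Without that library the interaction of VCL was 0.38 and that of ROCK1 0.35. PTK2 stood at 324 and 173 CPM before and at 195 and 166 CPM at 2 h in monolayers, and its interaction was −0.0496 without that library. ROCK1 stood at 57.1 and 31.3 CPM in monolayers before NEE and 37.2 and 24.2 CPM right after, against 25.3 and 27 CPM and then 31.9 and 34.3 CPM in spheroids. VASP stood at 2.45 and 11.8 CPM in spheroids before NEE and 6.29 and 3.61 CPM at 24 h, so the later pair lay within the spread of the earlier one.

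Early SRF targets (12 genes, 11 tested) are switched on within hours of a stimulus. The 3 described here were chosen after their values were seen. CCN1, a matricellular protein gene, stood at 94.6 and 81.6 CPM in monolayers before NEE and at 612 and 381 CPM at 2 h, and in spheroids at 26.4 and 23.5 CPM before and 541 and 88.4 CPM at 2 h. NR4A1, a nuclear receptor gene, stood at 59.9 and 24.9 CPM before and 279 and 196 CPM at 2 h in monolayers, and at 13.5 and 12.1 CPM before and 319 and 73.6 CPM at 2 h in spheroids. FOSB stood at 12.6 and 3.68 CPM before and 38 and 39.6 CPM at 2 h in monolayers, and was at 0 in both spheroid libraries before and at 48.2 and 5.79 CPM at 2 h. Each 2 h library was above each library before NEE for 6 of the 11 in monolayers and 5 in spheroids, and for those 5 (FOSB, IER3, CCN1, CCN2 and NR4A1) in both, against 12.7%, 14.5% and 2.47% of all genes. It was not so for EGR1, EGR2, JUNB, IER2 and MCL1 in either culture. None of the 11 passed in edgeR (adjusted p = 0.103 to 1), where 5 of the 11 had an unadjusted p under 0.05 in each culture. DESeq2 called 2 in monolayers, CCN1 and NR4A1, and 4 in spheroids, those 2 with FOSB and CCN2, and with the replicate block edgeR called NR4A1 in spheroids (adjusted p = 0.0369). SRF itself stood at 5.77 and 6.09 CPM at 2 h in monolayers and 4.38 and 5.06 CPM in spheroids.

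NEE-sampled RNA was compared with the monolayer lysates of all 4 times, to ask how far the RNA drawn out of cells stands for the RNA inside. Of 43 members 17 were higher, against 22.5% of all 17067 genes tested, and 14 lower, against 26%. The shares are read beside a shift of all genes: the median log2 fold change over all genes was −0.20 with TMM, −0.13 with RLE and −0.04 with upper-quartile scaling, and over members 0.27, 0.34 and 0.43. RLE called 20 higher and 14 lower, against 23.8% and 24.8% of all genes, and upper-quartile scaling 21 and 13, against 25.6% and 23.2%. No library overlapped between NEE-sampled RNA and monolayers for 19 members that were higher and 15 that were lower, against 21.3% and 23.2% of all genes. The 3 NEE-sampled libraries are technical repeats, so their spread is not that of separate samplings. Summed into 1 library, assumed to vary like a lysate, they left 14 members higher and 9 lower, against 13.4% and 12.9% of all genes. The 8 that lost their call were ACTG1, TPM3, TAGLN2, ARPC5, ACTR2, TLN1, PXN and PTK2.

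Genes that bind monomers or sever or cap filaments were higher in 6 of 7 cases, and values in parentheses from here on are log2 fold changes. The main thymosin gene TMSB4X stood at 4017, 2876 and 4499.8 CPM in NEE-sampled RNA, against 857 to 1367 CPM with a median of 969 CPM in monolayers (1.88 ± 0.15 SE, edgeR adjusted p = 2.65e-06). The related TMSB10 stood at 928, 652 and 1022 CPM in NEE-sampled RNA, against 87.2 to 291 CPM with a median of 117 CPM in monolayers (2.67 ± 0.23 SE, edgeR adjusted p = 4.24e-06). In both genes every NEE-sampled library was above every monolayer library. PFN1 (1.71), CFL1 (1.5), CAPZB (1.36) and DSTN (0.73) were also higher (edgeR adjusted p = 4.14e-05 to 0.000728), and CAPZA1 at 0.27 was not called. Pseudogenes of TMSB4X took 103 CPM in NEE-sampled RNA and 8.4 CPM in lysates, beside 3798 and 911 CPM of the gene itself.

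Myosin split between its chains. The essential light chain gene MYL6 stood at 808, 754 and 1173 CPM in NEE-sampled RNA, against 155 to 275 CPM with a median of 213 CPM in monolayers (2.02 ± 0.20 SE, edgeR adjusted p = 1.19e-05). The regulatory light chains MYL12A and MYL12B were higher by 1.08 and 1.33. The heavy chain gene MYH9 stood at 73.4, 71.4 and 91.3 CPM in NEE-sampled RNA, against 241 to 507 CPM with a median of 387 CPM in monolayers (−2.30 ± 0.24 SE, edgeR adjusted p = 1.35e-05), and MYH10 was lower at −2.38. Light chain counts per heavy chain count were 13.5 to 17.9 in NEE-sampled RNA, 0.664 to 1.60 in monolayers and 0.985 to 3.00 in spheroids.

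The Arp2/3 complex split as well. ARPC3 (1.79), ARPC2 (1.31) and ARPC5 (0.60) were higher and ACTR3 (−1.34) and ACTR2 (−0.96) lower, while ARPC1B at −0.58 was not called. With the technical repeats summed, ARPC2, ARPC3 and ACTR3 passed and ARPC5 (edgeR adjusted p = 0.0625) and ACTR2 (edgeR adjusted p = 0.0796) did not. Counts of the 3 higher subunits per count of ACTR2 and ACTR3 were 3.29 to 5.31 in NEE-sampled RNA and 0.589 to 1.15 in monolayers. ARPC1B shares 32.4% of its exonic bases with another gene on the same strand, and its level is uncertain.

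Focal adhesion genes were lower in 4 of 5 cases. VCL stood at 45.3, 33.3 and 27.1 CPM in NEE-sampled RNA, against 321 to 1033 CPM with a median of 519.7 CPM in monolayers (−3.96 ± 0.31 SE, edgeR adjusted p = 2.3e-06), the largest difference among the 43 members. PXN (−1.21), PTK2 (−1.10) and TLN1 (−0.94) were lower too, but with the technical repeats summed none of these 3 passed (edgeR adjusted p = 0.0566, 0.0504 and 0.104 for PTK2, PXN and TLN1), which leaves VCL as the lower one. By contrast ZYX stood at 87.4, 72.1 and 76.9 CPM in NEE-sampled RNA, against 7.89 to 25.2 CPM with a median of 17.8 CPM in monolayers, and was higher (2.09 ± 0.29 SE, edgeR adjusted p = 0.000106). ZYX made up 27.4% to 30.5% of the counts of the 5 adhesion genes in NEE-sampled RNA and 1.09% to 4.0% in monolayers.

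Among crosslinkers, FLNA stood at 202, 179 and 139.9 CPM in NEE-sampled RNA, against 589 to 1257 CPM with a median of 778 CPM in monolayers (−2.23 ± 0.23 SE, edgeR adjusted p = 1.24e-05). Alpha-actinin gene ACTN4 stood at 422, 463 and 394 CPM in NEE-sampled RNA, against 1322 to 2294 CPM with a median of 1819.8 CPM in monolayers (−2.11 ± 0.17 SE, edgeR adjusted p = 2.95e-06). Both sets of NEE-sampled libraries lay below all monolayer libraries. CNN3 was lower at −1.16 and TAGLN2 higher at 0.81, a call lost with the technical repeats summed, and ACTN1, CNN2 and TAGLN were not called. Among genes that promote filament growth or contraction, VASP stood at 38.7, 20.5 and 24.6 CPM in NEE-sampled RNA, against 3.87 to 8.08 CPM with a median of 5.28 CPM in monolayers (2.32 ± 0.28 SE, edgeR adjusted p = 3.64e-05), ROCK1 was lower at −1.72, and DIAPH1 and ROCK2 were not called.

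Of the actins, ACTG1 stood at 10357, 11584 and 11612 CPM against 7198 to 9313 CPM (log2 fold change 0.37 ± 0.12 SE, edgeR adjusted p = 0.0281), a call that was lost in 9 of 19 alternatives. ACTB stood at 12589.9, 15048 and 13470.1 CPM against 9276 to 12054 CPM, a change of 0.29 ± 0.13 that did not pass (edgeR adjusted p = 0.0843). On the TMM scale the NEE-sampled libraries of both genes lay above all monolayer libraries. As a share of all counts the 2 actins together overlapped, at 1.89% to 2.30% in NEE-sampled RNA and 1.76% to 2.26% in monolayers. TPM2 was higher at 1.57 and TPM3 lower at −0.46, a call lost in 5 of 19 alternatives, with TPM1 and TPM4 not called. MRTFB was lower at −2.03 (edgeR adjusted p = 9.86e-05), whereas MRTFA at 0.63 and SRF at 0.65 were not called.

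Transcript length moved with these differences. The 17 higher members had principal transcripts of 496 to 7209 nt with a median of 1604 nt, the 14 lower ones 1523 to 9484 nt with a median of 6104 nt. Across the 43 members Pearson's r between log2 length and log2 fold change was −0.72 and Spearman's coefficient −0.70, and across 13455 coding genes −0.33 and −0.39, as a description over genes that share their libraries. Under 1000 nt the median of all coding genes was 1.89 and all 3 members were higher. At 8000 nt and over the median was −1.0 and 4 of 5 members were lower. Some members lay far from the median of their length range, with VCL 3.12 below it, VASP 2.36 and ZYX 2.14 above it, and ARPC5 1.44 above it. Other called members lay near that median, with MYL6 0.13, MYL12A 0.30, TAGLN2 0.03 and TLN1 0.06 above it. CAPZB, called higher, lay 0.53 below the median of its range. The heavy chains MYH9 and MYH10 lay 1.46 and 1.54 below theirs. NEE-sampled RNA also went through another extraction kit, so sampling, purification and a difference by length cannot be told apart here.

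**Figure D4:**
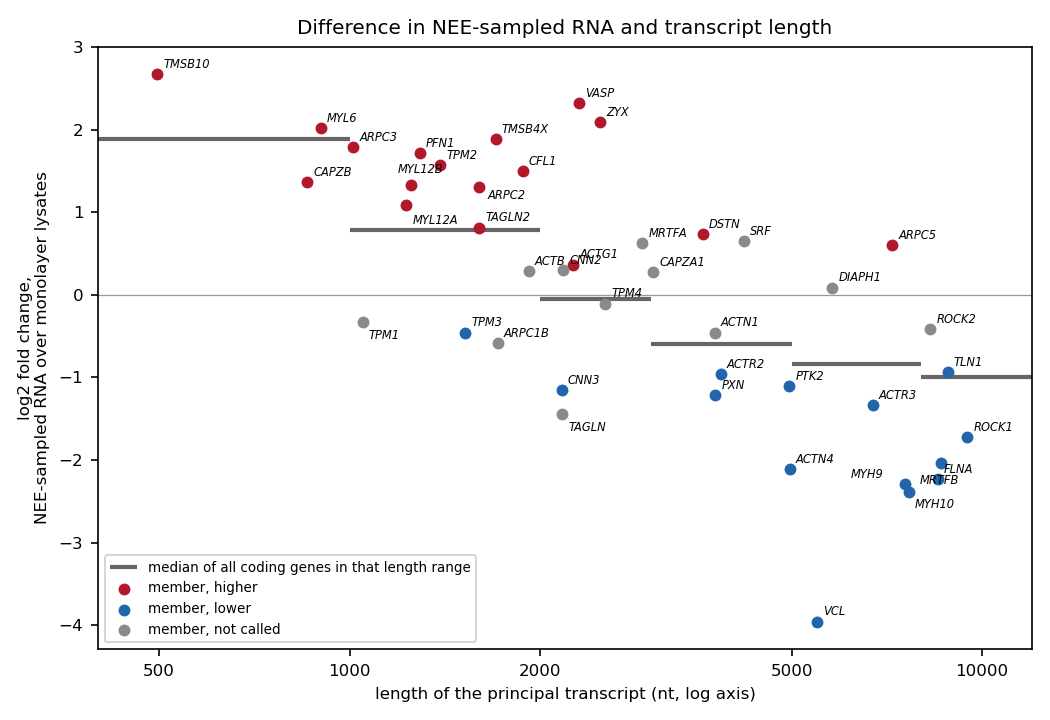
Log2 fold change in NEE-sampled RNA over monolayer lysates (vertical axis) against the length of the principal transcript in nt (log axis) for 43 members, with the median of all coding genes in 6 length ranges as bars. The bars go from 1.89 in the shortest range to −1.0 in the longest, and VCL, VASP and ZYX lie farthest from their bars.

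Against the 2 monolayer libraries before NEE alone, 15 members were higher and 13 lower, against 15.6% and 22.5% of all genes. The 4 with the smallest p were VCL at −4.39 (1033 and 452 CPM before NEE), ACTN4 at −2.31 (2156 and 2057 CPM before NEE), FLNA at −2.47 (1257 and 668 CPM before NEE) and MYH9 at −2.37 (507 and 305 CPM before NEE), with edgeR adjusted p = 1.73e-05 to 9.27e-05. The next 4 were TMSB4X at 1.56 (1367 and 1205 CPM before NEE), MYH10 at −2.45 (119 and 102 CPM before NEE), MRTFB at −2.20 (79 and 38.4 CPM before NEE) and ACTR3 at −1.50 (614 and 352 CPM before NEE), with edgeR adjusted p = 0.000362 to 0.000444. The 13 alternatives include fits with either monolayer library before NEE left out. Over them VCL ranged from −4.87 to −3.73, FLNA from −2.85 to −1.99, MRTFB from −2.62 to −1.63 and ACTR3 from −1.84 to −1.08. The comparisons with all 4 times and with before NEE alone share the NEE-sampled libraries and these 2 lysates, so they are not independent. Without replicate 1 of the monolayers before NEE, which stood apart, 12 members were higher and 11 lower, against 7.78% and 13.2% of all genes. MYL12A, MYL12B, TLN1, ACTR2, TAGLN2 and ARPC2 were then not called, and SRF was.

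The other genes of these pathways were compared in NEE-sampled RNA too, against 22.5% of all genes higher and 26% lower. Other Arp2/3 genes gave 4 higher and 3 lower of 12, with the lower ones near the share of all genes. ARPC1A stood at 134 ± 18.6 CPM (mean ± SD of 3 technical repeats) against 28.2 ± 2.52 CPM (mean ± SD, n = 8) in monolayers (log2 fold change 2.22, edgeR adjusted p = 1.78e-06) and ARPC4 at 382 ± 52.9 against 86.5 ± 10.9 CPM (2.11, edgeR adjusted p = 1.94e-06). Other crosslinkers gave 2 higher and 10 lower of 17, led by EZR (−2.30) and SPTBN1 (−3.94), and turnover factors 6 and 7 of 15, led by CORO1C (−1.73) and CORO1B (1.83). Other focal adhesion genes gave 5 and 6 of 21, both near the shares of all genes, led by CRKL (−2.57) and ARHGEF7 (−2.12). Early SRF targets gave 1 and 6 of 11, led by CCN1 (−5.58) and NR4A1 (−2.36). With the technical repeats summed, the counts higher and lower were 4 and 1 for Arp2/3 genes, 1 and 8 for crosslinkers, 5 and 2 for turnover factors, 4 and 5 for focal adhesion genes and 1 and 4 for early SRF targets. Of all genes 13.4% were higher and 12.9% lower in that fit. The 10 genes named here all passed then, with ARPC1A at 2.32 (edgeR adjusted p = 0.000193) and ARPC4 at 2.23 (edgeR adjusted p = 0.000196).

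Markers of other cells were summed as well. Natural killer and T cell markers (14 genes) summed to 1.69 to 5.75 CPM in NEE-sampled RNA against 30.1 to 888 CPM in monolayers, or at most 44.8 CPM without the library that stood apart. Smooth muscle markers (9 genes) summed to 16.7 to 19.0 CPM against 28.8 to 56.8 CPM (at most 42.2 CPM without it), and fibroblast markers (9 genes) to 8.59 to 16.6 CPM against 10.3 to 41.8 CPM (at most 22.8 CPM without it). The fibroblast ranges overlapped. So did those of myeloid markers (8 genes), at 13.8 to 32.8 CPM against 10.7 to 26.9 CPM. Endothelial markers (6 genes) at 0.475 to 1.42 against 0.702 to 19.2 CPM overlapped as well. Platelet and red cell markers (7 genes) did too, at 0.178 to 2.44 against 1.22 to 8.81 CPM. Their part in the result was not tested.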

How the data were processed

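The authors deposited raw read counts per gene for each of 19 libraries, 16 lysates and 3 of NEE-sampled RNA. FastQC, Trimmomatic, HISAT2, featureCounts and GRCh38 are named, per the submitters' processing notes, while tool versions, strandedness and treatment of multi-mapping reads are not given. Counts were tested with edgeR 4.0.16 (quasi-likelihood F test, TMM, filterByExpr, robust estimation, R 4.3.3), with Benjamini-Hochberg adjustment over all genes tested. Lysates were fitted together (16 libraries, 17822 genes), and NEE-sampled RNA with the 8 monolayer libraries (17067 genes). DESeq2 1.42.0, other scalings, other filters, a replicate block and each library left out were alternatives. The scripts were tested on simulated data.

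Positions and transcript lengths are from GENCODE release 29, promoters from RefSeq (GRCh38.p14). The genes and lists were chosen with earlier results of these data known. Values in every library are given for up to 8 called members by smallest p in a comparison, or for the member of each sign with the smallest p where fewer than 2 were called, and up to 2 called genes of each other list are named (3 early SRF targets were chosen after their values were seen), and 1 list is not reported here. The labels give lysates a replicate number as a batch, which is taken to pair them. Deviations of same-numbered libraries correlated with r of −0.31 to 0.53 over 28 pairs of groups (median 0.23, 19 pairs over 0.1, 8441 genes). Within a culture the median was 0.34 (−0.08 to 0.53, 9 of 12 pairs over 0.1). Between cultures it was lower, at 0.17 (−0.31 to 0.45, 10 of 16 pairs over 0.1), so pairing across cultures is less certain. NEE-sampled numbers are technical repeats. No 2 libraries of a lysate group agreed within counting noise.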

Additional observations from a re-analysis of the deposited data

How the results depend on the processing

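Between times and in the interactions, 0 of 43 members were called by edgeR in every alternative run. The named members kept their sign there except PTK2 at 2 h, whose interaction was −0.0496 with the first and 0.86 with the second monolayer replicate before NEE left out, and VASP at 24 h, whose interaction was −1.94 and 0.33 with the first and the second spheroid replicate before NEE left out. The count of members called between cultures over all times, 12, was 5 to 17 with 1 library left out, and 20 with only replicate number 2. Before NEE alone the count of 0 became 2 with no filter, 1 with a stricter filter, 2 in DESeq2, 1 with all 19 libraries in the fit and 0 to 6 with 1 library left out. With the replicate block it became 2, and the block changed the calls of ACTB, PFN1, FLNA and TLN1 over all times. The cause was not tested. In NEE-sampled RNA 31 calls became 30 to 32 with 1 library left out and 23 with the technical repeats summed. On library totals instead of TMM, the members' summed level went from 33673 to 35895 CPM in monolayers and from 45548 to 37692 CPM in NEE-sampled RNA.

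With 2 libraries a group and a median SE of 0.32 for members, changes with time that did not pass were not small in every case: NR4A1 at 2 h in spheroids gave 3.94 and CCN1 3.65 (edgeR adjusted p = 0.132 and 0.499). No group was kept for the same hours without NEE, so time in culture and NEE cannot be told apart. How reads shared with pseudogenes or overlapping genes were counted is not given.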

Other observations

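ACTB made up 53.4% to 59.0% of the counts of the 2 actin genes in monolayers, 49.9% to 53.6% in spheroids and 53.7% to 56.5% in NEE-sampled RNA. The monolayer and spheroid ranges overlapped. TMSB10 made up 9.24% to 17.5% of the counts of both thymosin genes in monolayers, 14.3% to 18.0% in spheroids and 18.5% to 18.8% in NEE-sampled RNA. The value of 17.5% is from the monolayer library that stood apart. MYH9 took 78.1% ± 4.03 of the counts of MYH9 and MYH10 in monolayers, 78% ± 6.31 in spheroids (mean ± SD, n = 8 each) and 80.0% ± 9.03 in NEE-sampled RNA (SD over 3 technical repeats), with overlapping ranges. These shares were not tested.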
